A study of Mus musculus with 2 samples.

Results

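The genes described here are the kallikreins (*Klk*, serine proteases of the trypsin and chymotrypsin type), the Kazal-type inhibitors (*Spink*) and the clade B serpins (*Serpinb*, mostly intracellular protease inhibitors). They were chosen by symbol, as each gene of the matrices used here that was named *Klk*, *Spink* or *Serpinb* followed by a digit, without pseudogene symbols. The rule gave 65 genes among the 32285 of the matrices, namely 26 *Klk*, 12 *Spink* and 27 *Serpinb* genes. They were followed across the epithelial cell classes of mouse back skin, which holds sebaceous glands (SG) and hair follicles (HF), and of the preputial gland (PG), a large scent gland of rodents built from sebocytes around a keratinised duct.

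Single-cell RNA-seq (10x Genomics 3′ v3.1 chemistry) had been run on male wild type C57BL/6 mice aged 52 weeks. Back skin had been taken as biopsies of 6 mm and PGs as whole glands, and the tissue of 3 mice had been pooled for each of the 2 libraries. There are therefore no replicates: a skin to PG difference is a difference between 2 libraries, tissue and library cannot be told apart, and no p-value is given. Ranges in parentheses are exact 95% intervals of the counting error alone. Levels are unique molecular identifiers (UMIs) of a gene, scaled to the sum of all UMIs in a class and given as counts per 1000000 (CPM), and a 3′ UMI counts molecules without scaling by transcript length.

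In the outer epidermis, kallikreins such as KLK5 and KLK7 are secreted from granular cells and cut the corneodesmosomes that hold dead cells together, so that scales can be shed. LEKTI, the product of *Spink5*, is the main inhibitor of these proteases, and its loss causes the barrier disease Netherton syndrome. Clade B serpins act mostly inside cells, where they trap serine or cysteine proteases, and several of them are abundant in stratified epithelia.

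After filtering, 8899 skin cells (median 2386 UMIs) and 4699 PG cells (median 2729 UMIs) were kept, and the libraries shared 0 cell barcodes. Classes were named from fixed marker genes, none of them a member of the families, with gate thresholds set after the marker levels had been seen. The skin classes compared are 2849 basal-like, 1343 suprabasal-like, 92 granular-like, 503 upper follicle-like, 740 bulge and outer root sheath-like, 313 hair matrix-like and 331 inner root sheath-like cells. The PG classes compared are 1568 basal-like, 549 upper follicle-like (duct-like) and 872 sebocyte-like (pSEB) cells. PG held 4 suprabasal-like and no granular-like cells, and skin held 39 sebocyte-like cells (sSEB), so these were not compared. Within 25% above their gate lay 5 of the 92 granular-like, 12 of the 503 skin upper follicle-like and 27 of the 549 PG duct-like cells.

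The kallikrein genes formed a compact array. All 26 *Klk* genes lay within 539.2 kb of chromosome 7 (chr7:43690418-44229618, GRCm38), and the 11 genes from *Klk14* to *Klk4* stood side by side on the plus strand within 195.4 kb (chr7:43690418-43885804). The clade B serpins formed separate groups, with 11 genes on chromosome 1 (chr1:106861173-107610484) and 16 on chromosome 13 (chr13:32842092-34002794). UMIs were found for all 11 serpins of the chromosome 1 group and for 9 of the 16 on chromosome 13. An annotated gene on the other strand, *2310002F09Rik*, overlaps the stretch from *Klk8* to *Klk14*, and whether counting used strand was not given in the sources used here, so reads of both strands cannot be told apart in that stretch.

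The sequence just before the transcription start is shown for 3 members with high levels in granular-like cells, the kallikrein gene *Klk7* and the 2 serpins with an AP-1 match. AP-1 is a dimeric activator of many keratinocyte genes, and CACCC boxes are bound by Krüppel-like factors. The AP-1 letters searched were TGACTCA or, with the other middle base, TGAGTCA. The CACCC box was searched as CCACCC, and both motifs were searched on both strands. TATAAA was searched on the strand of the gene. Each stretch below is 250 bases upstream of a RefSeq start site (GRCm38.p6), 5′ to 3′ on the plus strand, with AP-1 and CACCC matches in capitals. *Klk7* comes from chr7:43811044-43811293, *Serpinb7* from chr1:107422439-107422688 and *Serpinb8* from chr1:107589756-107590005. Overlap of these stretches with annotated exons was not checked. The *Serpinb7* stretch precedes an internal start of that gene, which is annotated from chr1:107399655-107452689, and the other stretches end at the first base before the gene.
Klk7: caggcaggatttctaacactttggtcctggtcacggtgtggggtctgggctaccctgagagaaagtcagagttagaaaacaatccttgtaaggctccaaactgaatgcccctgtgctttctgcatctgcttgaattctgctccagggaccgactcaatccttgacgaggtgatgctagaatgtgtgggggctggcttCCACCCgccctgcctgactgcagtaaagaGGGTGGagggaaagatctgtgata
Serpinb7: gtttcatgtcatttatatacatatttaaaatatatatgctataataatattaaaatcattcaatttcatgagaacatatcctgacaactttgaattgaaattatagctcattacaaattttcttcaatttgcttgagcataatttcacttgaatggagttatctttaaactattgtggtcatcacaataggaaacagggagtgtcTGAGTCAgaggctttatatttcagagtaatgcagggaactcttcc
Serpinb8: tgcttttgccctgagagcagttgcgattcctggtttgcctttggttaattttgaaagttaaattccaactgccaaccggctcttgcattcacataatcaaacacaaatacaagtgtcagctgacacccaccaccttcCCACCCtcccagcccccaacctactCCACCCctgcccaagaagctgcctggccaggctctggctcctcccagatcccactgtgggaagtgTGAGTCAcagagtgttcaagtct

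Upstream stretches were read for 31 of the 39 members with UMIs (40 start sites). A CACCC box was found in 21 of the 40 (52.5%), against 28.08% of 32851 promoters of all genes. Overlapping stretches of 1 gene count a match more than once, as for *Spink2* and *Serpinb6d*, and for TATAAA in *Serpinb2*. Counted by gene, the CACCC box was found before 19 of the 31 and TATAAA before 6. Among the genes from *Klk14* to *Klk4*, it was present before *Klk5*, *Klk7*, *Klk9*, *Klk10*, *Klk12*, *Klk13*, *Klk14* and 1 start of *Klk11*. It was absent before *Klk4*, *Klk6*, *Klk8* and the other *Klk11* start. An AP-1 match was found in 2 of the 40 (5%, against 4.463% of all promoters), beginning 45 bases before the start in *Serpinb7* and 23 bases before it in *Serpinb8*. TATAAA was found in 8 of the 40 (20%, against 7.592%), before *Serpinb12*, *Serpinb1c*, *Serpinb2*, *Serpinb3a*, *Serpinb3b* and *Serpinb3c*. Neighbouring genes of 1 cluster share ancestry and are not independent, and a match of letters is a description, not a site or a cause.

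Of the 65 genes, 38 had at least 1 UMI in skin cells and 29 in PG cells. UMIs of 28 were found in both, of 10 in skin cells only, of 1 (*Serpinb3d*, 1 UMI) in PG cells only, and of 26 in neither. Of all 32285 genes, 20869 had a UMI in skin cells and 18549 in PG cells. The skin cells held more UMIs in sum (27407186 against 15270076), and the part of this in the counts was not tested. The genes without a UMI were glandular kallikreins (*Klk1* and 12 of the *Klk1b* genes), *Klk15*, the inhibitor genes *Spink1* (known from the pancreas), *Spink7*, *Spink11*, *Spink13* and *Spink14* and 7 serpins of the *Serpinb6* and *Serpinb9* groups. Of these, *Klk1* and the *Klk1b* genes share 19.68% to 55.53% of the 31-base words of their transcripts with family members. *Serpinb9d* to *Serpinb9g* share 46.17% to 69.13%, so the lack of UMIs in both groups is uncertain. Together the families took 0.2017% of all UMIs of skin cells and 0.03286% of those of PG cells.

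Within skin, members with at least 10 UMIs (27 genes) had their highest level in the granular-like class more often than in any other, among the classes of at least 50 cells. The granular-like class held the highest level of 11, the bulge class of 5 and the suprabasal-like class of 4, with the remaining 7 spread over the hair matrix, upper follicle, basal, inner root sheath and cycling classes. Of all 15495 genes with that many UMIs in skin, 12.13% were highest in the granular-like, 20.89% in the bulge and 5.505% in the suprabasal-like class. In PG, the duct-like class held the highest level of 12 of 18 such members, and pSEB of 1, beside 20.26% and 22.75% of all 13669 genes. The granular-like cells were deeper than basal-like cells (median 7578 against 2470 UMIs per cell), which makes more genes visible in each of them but does not by itself change CPM. The limit of 10 UMIs counted all cells of a library, so some highest levels were low or close to the next. In granular-like against suprabasal-like cells *Serpinb6c* was 1.31 against 1.15 CPM and *Klk11* 61.5 against 59.2 CPM. In bulge against upper follicle-like cells *Serpinb6b* was 0.668 against 0.615 CPM.

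**Figure D1:**
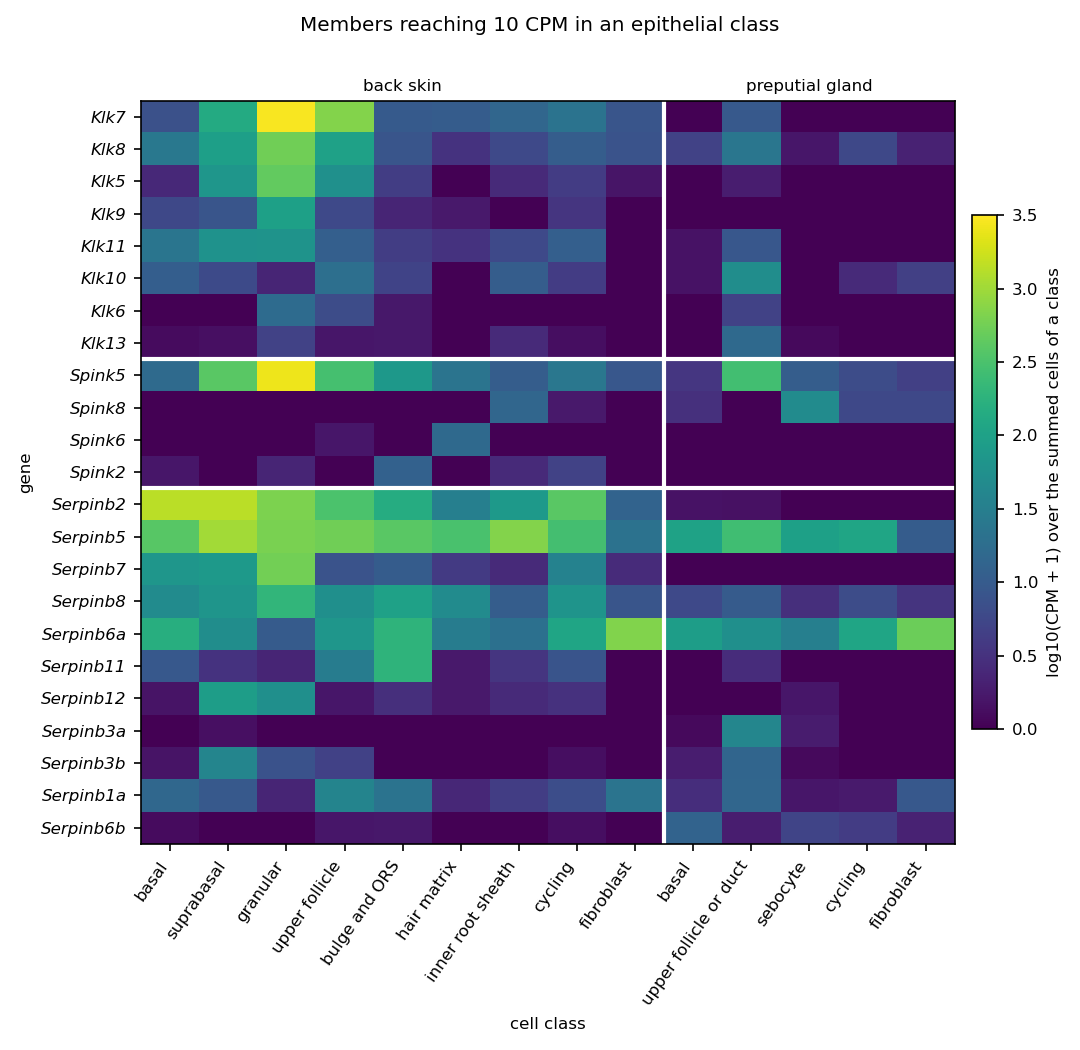
Level of each member that reached 10 CPM in an epithelial class (rows), as the log10 of CPM plus 1 (colour), for the epithelial classes and fibroblasts of skin and PG (columns). *Klk7* and *Spink5* reached 2900 and 2580 CPM in the granular-like cells, while *Serpinb2* was 1368 CPM in skin basal-like and 0.467 CPM in PG basal-like cells.

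The chymotrypsin-like protease gene *Klk7* had a steep profile in skin. Its level was 2900 CPM (2780 to 3023) in granular-like cells, 715 CPM (675 to 758) in upper follicle-like cells and 136 CPM (126 to 147) in suprabasal-like cells. It was 20.5 in cycling, 13.1 in inner root sheath, 9.60 in hair matrix, 8.69 in bulge and 6.40 CPM (4.75 to 8.43) in basal-like cells. The granular, upper follicle and suprabasal intervals did not overlap each other, whereas the basal level did not stand apart from the 7.32 CPM (3.90 to 12.5) of skin fibroblasts, which should lack the gene. RNA outside cells, read from barcodes with at most 100 UMIs, held 119 CPM of *Klk7* in skin, and levels near that of fibroblasts were read as background.

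*Klk5*, a trypsin-like protease that activates other kallikreins, reached 461 CPM in granular-like, 67.9 in suprabasal-like and 56.0 in upper follicle-like cells, with overlapping intervals for the last pair. Its other skin levels were 3.34 in bulge, 3.19 in cycling, 1.64 in inner root sheath and 1.54 CPM in basal-like cells, and it had no UMI in hair matrix cells, beside 0.563 CPM in fibroblasts. *Klk8*, the trypsin-like neuropsin, stood at 542 CPM in granular-like, 101 in upper follicle-like, 94.1 in suprabasal-like and 24.2 in basal-like cells, and at 9.92 or less in cycling, bulge, inner root sheath and hair matrix. All 3 genes were highest in granular-like cells, and the gap between upper follicle and suprabasal levels was seen for *Klk7* alone among them.

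*Klk11* behaved differently: it was 61.5 CPM in granular-like and 59.2 in suprabasal-like cells, 22.3 in basal-like, 10.6 in cycling, 10.5 in upper follicle-like cells and 4.91 or less in bulge, inner root sheath and hair matrix. *Klk9* was 96.9 CPM in granular-like cells, from 74 UMIs in 21 cells with 14 in a single cell, and low in the other epithelial classes (suprabasal-like 7.29, upper follicle-like 4.92, basal-like 4.73, cycling 2.48, bulge 1.34, hair matrix 0.739 CPM, inner root sheath no UMI). *Klk10* was not a granular gene, with 1 UMI (1.31 CPM) there, 17.8 CPM in upper follicle-like, 10.1 in basal-like, 9.83 in inner root sheath, 5.18 in suprabasal-like, 4.01 in bulge and 3.19 in cycling cells, and none in hair matrix cells. *Klk6* (12 UMIs, 15.7 CPM) and *Klk13* (3.93 CPM) were found at low levels in granular-like cells, and *Klk12*, *Klk14*, *Klk4* and *Klk1b24* had 1 to 3 UMIs each per tissue where found.

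**Figure D2:**
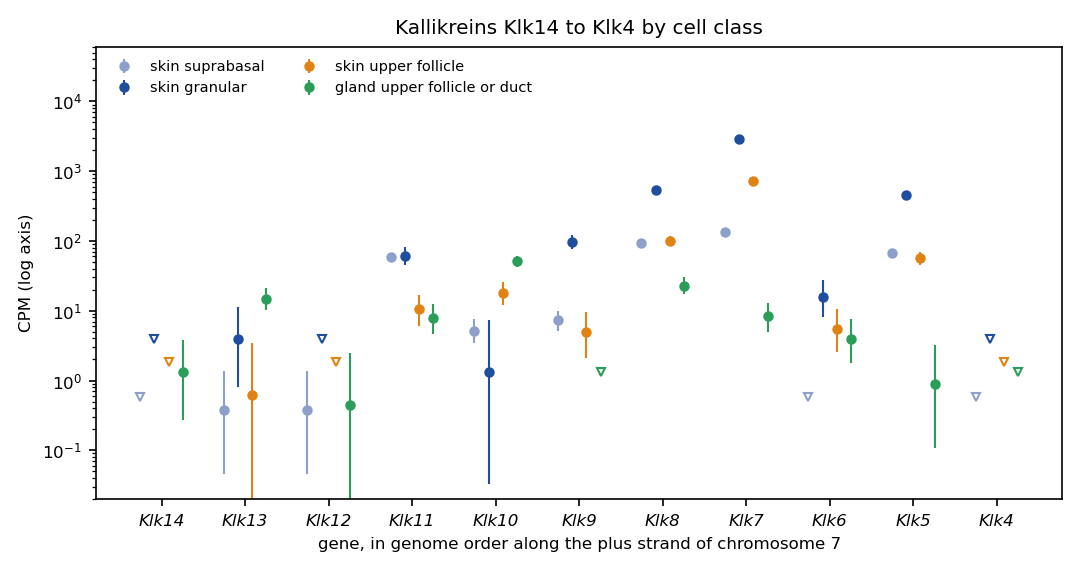
Levels of the 11 neighbouring kallikrein genes in gene order from *Klk14* to *Klk4*, in CPM on a log axis, with exact 95% Poisson intervals, in 3 skin classes and the PG duct-like class, and with open triangles at the level that 3 UMIs would give where a class had none. *Klk7* (2900 CPM), *Klk8* (542 CPM) and *Klk5* (461 CPM) were highest in granular-like cells, while *Klk10* (51.5 CPM) and *Klk13* (14.95 CPM) were highest in PG duct-like cells.

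Over basal-like cells, a gene was counted as higher or lower when the ratio of levels was at least 2-fold and its 95% counting interval excluded equality, among genes with at least 10 CPM in either class and 10 UMIs in both together. In granular-like cells 15 members could be compared, 10 were higher and 4 lower, and the median difference was 3.08 on the log2 scale. Of all 8199 genes compared there, 16.6% were higher and 33.4% lower, with a median of −0.50. Those higher were *Klk5*, *Klk6*, *Klk7*, *Klk8*, *Klk9*, *Klk11*, *Spink5*, *Serpinb7*, *Serpinb8* and *Serpinb12*. *Klk7* was 453-fold higher (log2 interval 8.42 to 9.26), *Klk5* 300.2-fold (7.41 to 9.20), *Spink5* 169-fold (7.14 to 7.68), *Klk8* 22.4-fold (4.24 to 4.74) and *Klk9* 20.5-fold (3.77 to 4.97). The intervals of the basal levels of *Klk7*, *Klk5* and *Spink5* overlapped those of fibroblasts, and with free RNA subtracted their log2 differences were 12.87, 9.80 and 8.50. With unsupervised (Leiden) clusters as classes *Klk7* was 7.46 and *Klk5* 7.95, so that their order turned. *Klk6* had no UMI in basal-like cells and was higher by a log2 of at least 4.83. *Serpinb2*, *Serpinb6a*, *Klk10* and *Serpinb1a* were lower, the last pair with 1 UMI each in granular-like cells (log2 −2.95, −8.27 to −0.43, and −3.40, −8.72 to −0.89). *Serpinb2* was 2.15-fold lower (log2 −1.10), and −2.56 on the log2 scale with Leiden clusters.

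In suprabasal-like cells, 8 of 14 members were higher and 1 lower, against 8.13% and 11.1% of 7926 genes. *Serpinb12* had 462 UMIs against 4 (173-fold, log2 interval 6.07 to 9.32), and the others higher were *Serpinb3b* (73.8-fold), *Klk5* (44.2-fold), *Spink5* (26.2-fold), *Klk7* (21.3-fold), *Klk8* (3.89-fold), *Serpinb5* (2.73-fold) and *Klk11* (2.66-fold). *Serpinb6a* was 3.05-fold lower. The order of the folds depended on background, since with free RNA subtracted the log2 values were 8.41 for *Klk7*, 7.84 for *Serpinb12*, 7.03 for *Klk5* and 5.80 for *Spink5*. With Leiden clusters *Klk7* was 3.73 and *Spink5* 5.36. The members' median was 1.43 on the log2 scale, beside −0.10 for all genes. *Serpinb7* (log2 0.21, 0.02 to 0.40) and *Serpinb8* (0.47, 0.26 to 0.69) stayed under 2-fold.

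In upper follicle-like cells, 6 of 13 members were higher and 4 lower, against 7.9% and 8.34% of 8029 genes. *Klk7* was 112-fold higher than in basal-like cells (log2 interval 6.40 to 7.24), *Klk5* 36.5-fold, *Spink5* 19.0-fold, *Klk8* 4.17-fold, *Serpinb11* 3.59-fold and *Serpinb1a* 2.71-fold. *Serpinb7*, *Serpinb2*, *Serpinb6a* and *Klk11* were lower by 9.91-, 4.23-, 2.25- and 2.13-fold. The members' median was 0.82, beside −0.04 for all genes. With free RNA subtracted, *Klk7* was 10.85 on the log2 scale (9.30 to 13.13), *Klk5* 6.74 and *Spink5* 5.32. With Leiden clusters as classes *Klk7* was 5.88, *Spink5* 5.16 and *Serpinb7* −2.67, and *Serpinb11* (0.12) no longer counted. The upper follicle thus held high *Klk7* together with low *Klk11* and *Serpinb7*, both of which were high in granular-like cells.

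Members were mostly lower than in basal-like cells in the hair matrix and inner root sheath classes, and moved both ways in the bulge class. In the bulge and outer root sheath class 4 of 12 were higher and 5 lower (all 8520 genes, 10.4% and 4.41%), in the hair matrix class 1 of 11 higher and 7 lower (8467 genes, 17.9% and 18.8%), and in the inner root sheath class 2 of 12 higher and 7 lower (8426 genes, 15.4% and 17.1%). The members' medians were 0.18, −2.46 and −2.13, beside 0.15, 0.19 and 0.23 for all genes. *Serpinb2* was lower in each, by 9.34-, 43.1- and 18.2-fold, the hair matrix value being log2 −3.58 with Leiden clusters in place of −5.43. *Klk7* was counted as higher in the inner root sheath class at only 2.05-fold (16 UMIs, log2 interval 0.12 to 1.87), a call that ended under 5 other settings, and its level there overlapped that of fibroblasts.

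*Spink5* was the leading Kazal inhibitor gene of the epidermis, the upper follicle and the PG duct. It stood at 2580 CPM (2468 to 2697) in granular-like, 399.6 in suprabasal-like, 289 (264 to 316) in upper follicle-like and 72.2 CPM in bulge cells. Lower levels were found in cycling (23.4), hair matrix (21.4), basal-like (15.2) and inner root sheath cells (9.83), beside 7.88 CPM in fibroblasts. Of the summed *Spink* level, *Spink5* took 99.9% in granular-like and 99.68% in PG duct-like cells. The bulge level was 4.74-fold above basal (log2 2.25, 1.86 to 2.63), and 3.29 on the log2 scale with deeper cells only, 3.42 with Leiden clusters and 3.19 with free RNA subtracted, in a class where *Klk7* (8.69 CPM) lay at the fibroblast level and *Klk5* was 3.34 CPM. Of the 108 *Spink5* UMIs in the bulge class, found in 30 cells, 56 lay in a single cell. The ratio without that cell was not computed.

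The other Kazal genes were low in skin, and each was highest in a different skin class. *Spink6*, an inhibitor of kallikreins, had 20 UMIs in 4 hair matrix cells (14.8 CPM, above basal by a log2 of at least 4.83), 13 of them in a single cell. *Spink2*, known as an inhibitor of the sperm protease acrosin, had 17 UMIs in 16 bulge cells (11.4 CPM) against 5 in basal-like cells (log2 4.15, 2.65 to 5.94, but 1.04, −4.58 to 4.38, with deeper cells only), and *Spink8* had 16 UMIs in 15 inner root sheath cells (13.1 CPM) against 0 in basal-like cells. *Spink4* reached 4.60 CPM in suprabasal-like and *Spink10* 3.90 CPM in cycling cells, the latter below the 4.39 CPM of RNA outside cells in skin.

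The mix of protease and inhibitor UMIs differed between skin classes. *Klk7* took 52.9% (51.4 to 54.4) of the *Klk7* plus *Spink5* UMIs in granular-like cells, 71.2% (69.0 to 73.4) in upper follicle-like cells and 25.4% in suprabasal-like cells. *Klk5* took 15.2%, 16.2% and 14.5% of *Klk5* plus *Spink5* UMIs in the same order, so this mix varied far less. Both *Klk7* and *Spink5* were detected in 86 of the 92 granular-like cells. In upper follicle-like cells 187 of 503 had a *Klk7* UMI and 132 a *Spink5* UMI, and 74 had both, or 39.57% of the *Klk7* cells.

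Shares of cells were compared after thinning each cell to 1000 UMIs. A *Klk7* UMI was then expected in 84.6% of granular-like, 25.5% of upper follicle-like, 4.47% of suprabasal-like and 0.499% of basal-like cells, beside 0.717% of fibroblasts (unthinned 94.6%, 37.2%, 8.41%, 1.19% and 0.987%). For *Spink5* the thinned shares were 87.2%, 15.6%, 21.7% and 1.14%, beside 0.787% of fibroblasts (median depth 1778 UMIs, against 7578, 2560, 3145 and 2470 in the other classes). Granular-like cells thus nearly all carried both RNAs. In upper follicle-like cells, 32 cells (6.362%) with at least 10 *Klk7* UMIs held 58.21% of its UMIs there.

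When the cells of a class were ranked by the share of their UMIs that came from the class's own markers and split into 3 equal parts (low, middle and high tercile), *Klk7*, *Klk5* and *Spink5* were higher in the high tercile than in the low one in suprabasal-like and upper follicle-like cells. In suprabasal-like cells *Klk7* read 41.8, 72.8 and 254 CPM, *Klk5* 8.60, 14.8 and 151, *Spink5* 101, 242 and 742, and *Serpinb12* 10.4, 48.5 and 177. In skin upper follicle-like cells *Klk7* read 207, 745 and 1156 CPM and *Spink5* 106, 364 and 387. *Serpinb11* and *Serpinb1a* ran the other way there, from 55.7 to 8.87 and from 65.3 to 3.55 CPM. In granular-like cells, with 30 or 31 cells in each tercile, *Klk7* read 2413, 2454 and 3986 CPM and *Serpinb8* 117, 133 and 386, while *Serpinb2* read 1192, 469 and 60.7 and *Serpinb5* 905, 685 and 195. *Spink5* had no such order there (2136, 3617 and 2156 CPM). The ranking and the members were read from the same cells, so the terciles are a description.

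**Figure D3:**
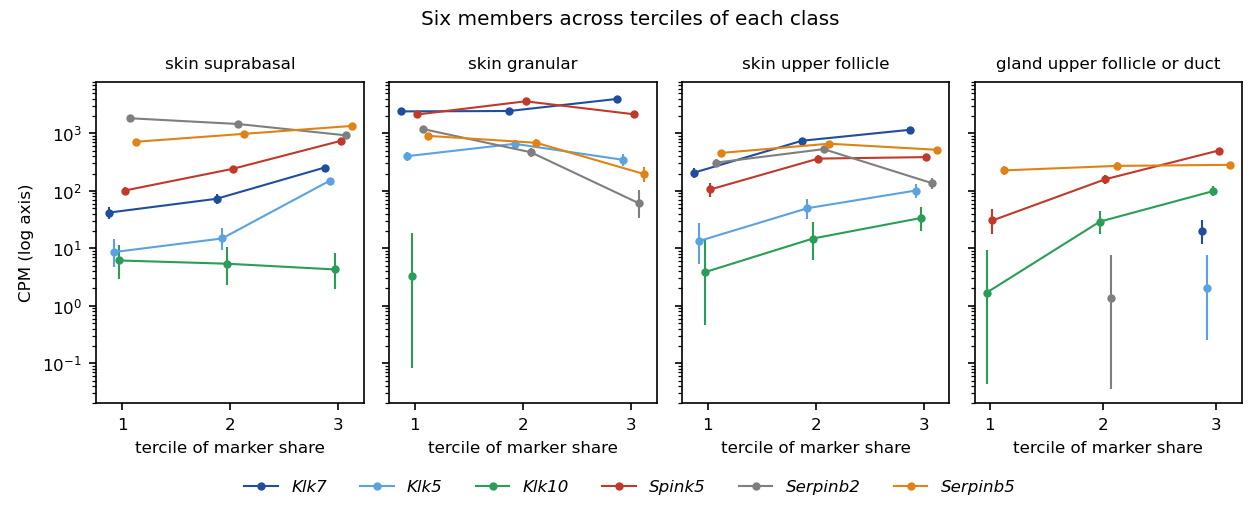
Levels of 6 members (CPM, log axis) in the low (1), middle (2) and high (3) tercile of the class's own marker share, for the suprabasal-like, granular-like and upper follicle-like cells of skin and the duct-like cells of PG, with exact 95% Poisson intervals and no point where a tercile had no UMI. *Klk7* went from 41.8 to 254 CPM in suprabasal-like and from 207 to 1156 CPM in upper follicle-like cells, and *Serpinb2* from 1192 to 60.7 CPM in granular-like cells.

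Among the clade B serpins, *Serpinb2* (plasminogen activator inhibitor 2) was the most abundant in skin and marked the inner layers. It stood at 1368 CPM in basal-like and 1359 CPM in suprabasal-like cells, with a ratio that did not differ beyond counting error (log2 −0.01, −0.05 to 0.03). It was 636 in granular-like, 400.2 in cycling, 324 in upper follicle-like, 146 in bulge, 75.3 in inner root sheath and 31.8 CPM in hair matrix cells, beside 11.8 CPM in fibroblasts. The gene was unevenly spread: 267 basal-like cells (9.372%) with at least 10 UMIs held 80.45% of its UMIs in that class, and 1558 cells (54.69%) had none. These 267 cells had a median depth of 3365 UMIs, against 2377 in the rest. In suprabasal-like cells 174 cells (12.96%) held 89.22%. *Serpinb2* (chr1:107511423-107535478) overlaps *Serpinb10*, not analysed here, and shares 11.17% of its 31-base words with it.

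*Serpinb5* (maspin, a serpin that does not inhibit proteases in the usual way) was the broadest member. It ranged from 315 CPM in hair matrix through 383 in basal-like, 407 in bulge, 546 in upper follicle-like, 626 in granular-like and 709.9 in inner root sheath to 1046 CPM in suprabasal-like cells, with 284 in cycling cells and 19.7 in fibroblasts. Its UMIs were less concentrated in basal-like cells than those of *Serpinb2*, since 12 basal-like cells (0.4212%) had 10 or more and held 5.945% of them.

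**Figure D4:**
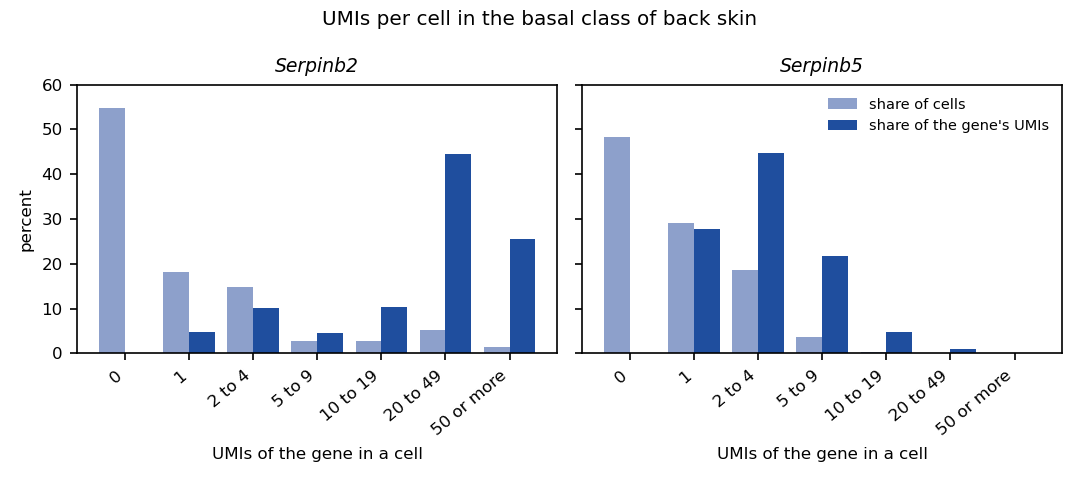
Share of skin basal-like cells (light bars) and share of the gene's UMIs (dark bars), in percent, by the number of UMIs of the gene in a cell, for *Serpinb2* and *Serpinb5*. Cells with 10 or more UMIs held 80.45% of the *Serpinb2* UMIs and 5.945% of the *Serpinb5* UMIs.

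*Serpinb7* (megsin, whose human counterpart is mutated in a palmoplantar keratoderma) and *Serpinb8*, the pair with the AP-1 match shown above, were highest in granular-like cells. *Serpinb7* was 566 CPM there, 77.7 in suprabasal-like, 67.0 in basal-like and 34.4 in cycling cells, and 9.36 or less in bulge (9.36), upper follicle-like (6.77), hair matrix (2.95) and inner root sheath (1.64) cells. Its granular level was 8.44-fold above basal (log2 interval 2.89 to 3.26). *Serpinb8* was 203 CPM in granular-like cells (4.29-fold above basal), 98.2 in bulge, 65.8 in suprabasal-like, 63.7 in cycling, 54.7 in upper follicle-like, 47.3 in basal-like and in hair matrix and 9.83 CPM in inner root sheath cells. The pair differed in the bulge class, where *Serpinb7* was 7.16-fold below and *Serpinb8* 2.08-fold above basal, the last value resting on the cell filter (log2 1.05, but −0.14 with deeper cells only).

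*Serpinb11* was highest in the follicle and *Serpinb12* in the epidermis. *Serpinb11* was 185 CPM in the bulge class (277 UMIs, 23.0-fold above basal, log2 interval 4.12 to 4.94, and 5.95 with Leiden clusters), 28.9 in upper follicle-like, 8.06 in basal-like, 7.08 in cycling and 2.46 CPM or less in the other epithelial classes. After thinning, 15.3% of bulge cells were expected to carry it (unthinned 21.6%). *Serpinb12* was 88.6 CPM in suprabasal-like and 54.99 in granular-like cells, and 2.13 CPM or less in the other epithelial classes of skin, with 0.615 CPM in upper follicle-like cells. The classes that shared high *Klk7*, granular-like and upper follicle-like, thus differed in *Serpinb12* and *Serpinb7*.

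*Serpinb6a*, an inhibitor of trypsin-like proteases and cathepsin G, was highest outside the epithelium. It was 678 CPM in skin fibroblasts against 186 in bulge, 155 in basal-like, 112 in cycling, 68.9 in upper follicle-like, 50.8 in suprabasal-like, 28.1 in hair matrix, 18.8 in inner root sheath and 9.16 CPM in granular-like cells. From basal to granular it was 16.9-fold lower, opposite to *Spink5*. *Serpinb3b*, of the squamous cell carcinoma antigen group, was 37.8 CPM in suprabasal-like cells, and *Serpinb13*, an inhibitor of cathepsins, had 13 UMIs in 11 hair matrix cells (9.60 CPM). The *Serpinb3a* to *Serpinb3d* genes share 16.36% to 33.52% of their 31-base words with family members, so their separate values are uncertain. *Serpinb6c* and *Serpinb9* were below 5 CPM in each epithelial class of at least 50 cells, and *Serpinb1b*, *Serpinb1c*, *Serpinb3c*, *Serpinb6d* and *Serpinb9b* had 1 to 3 UMIs per tissue where found.

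In PG, most members were highest in the duct-like cells. Against PG basal-like cells, 8 of 10 members were higher in duct-like cells and 1 lower (all 8197 genes, 8.81% and 19.2%), with a median of 3.30 beside −0.31 for all genes. *Spink5* had 617 UMIs against 11 (271 against 2.57 CPM, 106-fold, log2 interval 5.87 to 7.73). *Klk10* had 117 against 2 (51.5 against 0.467 CPM, log2 6.78, 4.90 to 9.85), and *Serpinb3a* 90 against 1 (39.6 against 0.233 CPM, log2 7.41, 4.89 to 12.73). *Klk13* had 34 UMIs in 9 duct-like cells, 13 of them in a single cell, and none in basal-like cells (log2 at least 4.04). *Serpinb3b*, *Serpinb1a*, *Klk8* and *Serpinb5* were higher by 13.7-, 7.06-, 5.76- and 2.57-fold. The 13.2 CPM (8.90 to 18.8) of *Serpinb1a* overlapped the 8.24 CPM (3.32 to 17.0) of PG fibroblasts and lay below the 40.4 CPM of RNA outside cells. With free RNA subtracted, *Serpinb1a* was still higher than in basal-like cells, by a log2 of at least 3.57. With Leiden clusters *Spink5* was 5.51 on the log2 scale, *Klk8* 1.38 and *Serpinb3b* 4.70. *Klk10* and *Serpinb3a* then had no basal UMI and were at least 4.775 and 4.53 higher. In the gated classes *Serpinb6b* had 2 UMIs against 51 (log2 −3.76, −6.84 to −1.83).

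*Klk10* UMIs of the duct-like class came from 31 cells, up to 23 in a single cell, and 23 of the 31 (74.19%) also had a *Spink5* UMI. Across the duct-like terciles *Klk10* read 1.70, 29.1 and 98.7 CPM and *Spink5* 30.5, 159 and 503, whereas *Serpinb5* read 227, 272 and 284 CPM. Other kallikreins were scarce in these cells: *Klk8* 22.9, *Klk7* 8.36 (19 UMIs in 7 cells), *Klk11* 7.92, *Klk6* 3.96 and *Klk5* 0.880 CPM (2 UMIs). *Klk9* and *Serpinb7* had no UMI in any PG cell.

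Members with levels outside the PG duct were few. *Serpinb5* was 265 CPM in duct-like, 113 in cycling, 103 in basal-like and 95.6 CPM in pSEB cells. *Serpinb6a* ran the other way, with 516 CPM in fibroblasts, 115 in cycling, 86.6 in basal-like, 54.98 in duct-like and 31.7 CPM in pSEB cells. *Serpinb8* was 9.24 in duct-like, 5.55 in cycling, 4.90 in basal-like and 1.96 CPM in pSEB cells, and *Spink5* outside the duct was 9.82 in pSEB, 5.55 in cycling and 3.53 CPM in fibroblasts. *Klk8* was 4.75 CPM in cycling, 3.97 in basal-like and 0.655 in pSEB cells, and *Klk10* was 1.58 CPM in cycling cells and 3.53 in fibroblasts, with no UMI in pSEB. *Serpinb2*, *Serpinb11* and *Serpinb12* were at or below 1.76 CPM in each PG epithelial class compared, and *Klk5*, *Klk7* and *Serpinb11* had UMIs in no other class of these than the duct-like cells.

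*Spink8* was the member with its highest level in pSEB. *Spink8* was 47.4 CPM (41.3 to 54.1) in pSEB, from 217 UMIs in 172 of 872 cells, against 2.10 CPM (9 UMIs) in PG basal-like cells, 4.75 in cycling cells, 4.71 in fibroblasts and no UMI in duct-like cells, where 3 UMIs would be 1.32 CPM. The pSEB level was 22.5-fold above basal (log2 4.50, 3.54 to 5.64), and 3.38 on the log2 scale with Leiden clusters and 5.32 with free RNA subtracted. RNA outside cells held 19.4 CPM of *Spink8* in PG and 0.526 CPM in skin. After thinning, 4.08% of pSEB were expected to carry it, beside 0.225% of PG fibroblasts (unthinned 19.7% and 0.721%, median depths 4774 and 1334 UMIs). The level was 54.9 CPM in the 629 pSEB that did not pass the basal gate and 21.4 CPM in the 243 that also passed it. Of the 4 members compared between pSEB and PG basal-like cells, 1 was higher and 2 (*Serpinb6a* 2.74-fold, *Serpinb6b* 2.87-fold, the latter −0.17 on the log2 scale with Leiden clusters) lower, against 7.17% and 11.3% of 8103 genes, and *Serpinb5* differed by a log2 of −0.11 (−0.30 to 0.08). The median was −0.78, beside −0.10 for all genes.

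The summed *Klk* level in pSEB was 0.873 CPM, beside 4.90 in PG basal-like and 112 in duct-like cells, and the summed *Serpinb* level was 139, beside 214 and 400.2 CPM. For the 39 sSEB only values can be given: *Spink8* had no UMI (3 UMIs would be 16.2 CPM), *Serpinb5* was 103 CPM, *Serpinb6a* 27.0, *Serpinb2* 16.2 and *Serpinb6c* 10.8 CPM (2 UMIs), and *Klk7*, *Spink5* and *Serpinb8* had 1 UMI each.

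Between tissues, PG basal-like cells were poorer in members than skin basal-like cells, with 1 of 11 higher and 9 lower (all 8597 genes, 17.8% and 14.9%). The classes were not alike in markers. Basal markers summed to 5807 CPM in the PG class and 22410 in the skin class, and sebocyte markers to 1377 and 107.8 CPM. The part of this in the member differences was not tested. *Serpinb2* had 2 UMIs in PG against 10690 in skin (0.467 against 1368 CPM, log2 −11.52, −14.56 to −9.66), and *Serpinb7* had 0 against 524 (log2 at most −6.28). *Klk11* and *Klk10* had 2 UMIs each in PG against 174 and 79 (log2 −5.58, −8.63 to −3.70, and −4.44, −7.51 to −2.54). *Serpinb8*, *Serpinb1a*, *Klk8*, *Spink5* and *Serpinb5* were lower by 9.65-, 7.40-, 6.09-, 5.93- and 3.71-fold. The skin basal level of *Spink5* (15.2 CPM) overlapped that of fibroblasts. That of *Serpinb1a* (13.8 CPM) was close to the 13.0 CPM of RNA outside cells in skin. Both ratios thus rest on low skin levels. With free RNA subtracted, both genes were still lower in PG (log2 at most −3.91 for *Serpinb1a* and at most −2.98 for *Spink5*). With Leiden clusters the basal class held 754 PG cells in place of 1568 and 3046 skin cells in place of 2849, while pSEB held 1799 cells in place of 872. In those classes *Spink5* was −1.07 on the log2 scale (−2.11 to −0.17), *Klk8* −1.56 and *Serpinb8* −2.47, and *Serpinb7*, *Klk11* and *Klk10* had no PG UMI (at most −5.07, −3.55 and −2.34). *Serpinb6b* was higher, with 51 UMIs against 2 (11.9 against 0.256 CPM, log2 5.54, 3.61 to 8.62). *Serpinb6a*, at 86.6 against 155 CPM, was not counted as changed. The members' median was −2.89 beside 0.10 for all genes.

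The duct-like cells of PG and the upper follicle-like cells of skin, gated by the same markers, differed in proteases more than in *Spink5*. Of 15 members 4 were higher and 8 lower in PG, against 13.4% and 20.3% of 8012 genes, with a median of −1.04 beside −0.21. *Spink5* was 271 CPM (250 to 294) in PG and 289 CPM (264 to 316) in skin, a log2 difference of −0.09 (−0.27 to 0.09). Only ratios counted as different were run again under the alternatives, so this value has no direct counterpart with Leiden clusters. With those clusters *Spink5* over basal-like cells was 5.51 in PG and 5.16 in skin, in place of 6.72 and 4.25. Its PG over skin basal value was −1.07 in place of −2.57. Together these put *Spink5* further below skin than −0.09. *Klk7* was 8.36 CPM in PG (19 UMIs) and 715 CPM in skin (1163 UMIs), 85.6-fold lower in PG (log2 interval −7.16 to −5.77). *Klk5* had 2 UMIs against 91 (log2 −5.99, −9.06 to −4.10), and *Klk8* was 4.41-fold lower. *Klk10* was higher in PG (51.5 against 17.8 CPM, log2 1.53, 0.93 to 2.17), as was *Klk13* (34 UMIs against 1, log2 4.60, 2.03 to 9.95, and at least 2.57 with Leiden clusters). Of the 117 *Klk10* UMIs in PG duct-like cells, 37.61% lay in 3 cells. The *Klk10* ratio without those cells was not computed. *Klk11* did not differ beyond counting error (log2 −0.40, −1.44 to 0.64).

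In these classes *Klk7* took 2.99% (1.81 to 4.63) of *Klk7* plus *Spink5* UMIs in the PG duct-like cells, against 71.2% in the skin upper follicle-like cells. *Klk10* took 15.9% (13.4 to 18.8) of *Klk10* plus *Spink5* UMIs in PG, against 5.81% in skin. The PG value includes the 3 cells that held 37.61% of the *Klk10* UMIs. Of the summed *Klk* level, *Klk7* made up 78.42% in skin upper follicle-like cells, and *Klk10* 45.88% in PG duct-like cells. RNA outside cells held *Klk7* at 119 CPM in skin and 2.72 in PG, and *Spink5* at 163 and 107 CPM. It comes from all classes of a library, in skin also the granular-like cells that PG lacked, so it cannot be assigned to these classes.

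Serpins also differed between these classes. *Serpinb3a* had 90 UMIs in 40 PG cells and none in skin (log2 at least 4.095), and *Serpinb3b* was 3.46-fold higher in PG. *Serpinb2* had 1 UMI in PG against 526 (log2 −9.52, −14.83 to −7.04), *Serpinb11* 4 against 47 (16.4-fold lower), and *Serpinb8*, *Serpinb1a* and *Serpinb5* were 5.93-, 2.84- and 2.06-fold lower. With Leiden clusters as classes, *Serpinb11* (log2 −0.46) and *Serpinb3b* (interval −0.14 to 2.33) no longer counted as different. The lower *Serpinb5* was close to the limit, and its call ended when cells with high doublet scores were removed (log2 −0.98) and under another scaling (−0.84). The suprabasal markers summed to 9010 CPM in the PG class and 9895 in the skin class, and the granular markers to 2.64 and 70.7 CPM, and the part of the latter in the *Klk7* difference was not tested.

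**Figure D5:**
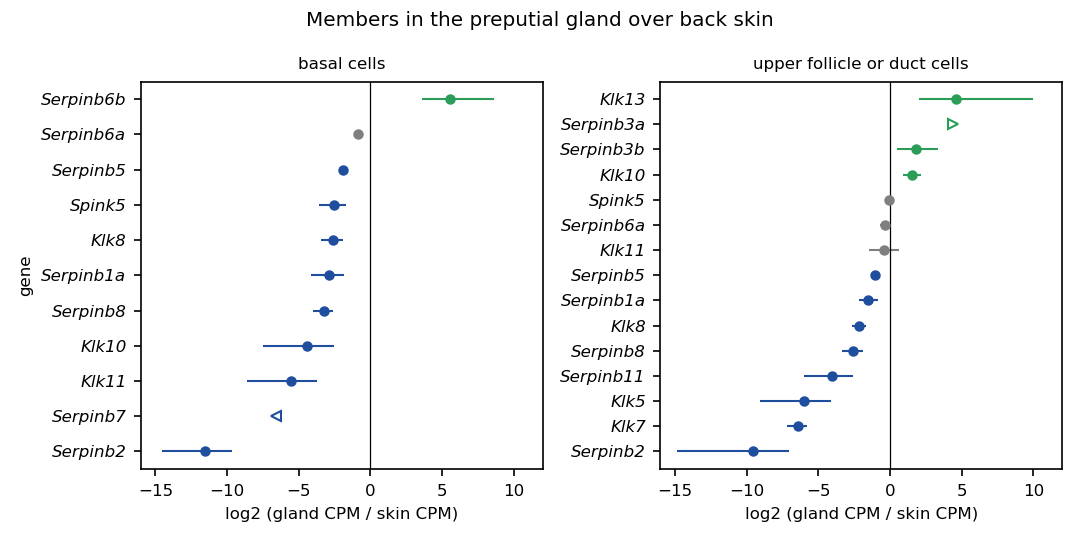
Level of each member compared in PG over skin, as log2 ratio with exact 95% counting intervals, for basal-like cells and for duct-like over upper follicle-like cells. In these gated classes *Spink5* lay near 0 in the duct-like comparison (log2 −0.09) while *Klk7* lay at −6.42, and arrows mark bounds where 1 class had no UMI.

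Other genes of the epidermal protease cascade, from lists that hold no member, were counted in the same way. In granular-like cells 10 of 13 other proteases and receptors were higher and 2 lower, beside 16.6% and 33.4% of all genes, with *Asprv1*, a protease that processes filaggrin, at 5232 CPM. Of 11 other inhibitors 4 were higher and 3 lower, with *Serpina12* (vaspin, an inhibitor of KLK7) at 640.2 CPM against 0.384 CPM in basal-like cells. Of the 6 corneodesmosome and filaggrin genes, 5 were higher and *Dsg3* lower, with *Cdsn*, a corneodesmosome protein cut by kallikreins, at 785 CPM and *Flg* at 2891 CPM.

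In PG duct-like over skin upper follicle-like cells, 3 of 13 other proteases and receptors (*Ctsb*, *Ctsd*, *Ctsl*) were higher and 5 (*Asprv1*, *Casp14*, *F2rl1*, *Prss8*, *Tmprss4*) lower, beside 13.4% and 20.3% of all genes, so the share higher was not far from that of all genes. Of 10 other inhibitors, 5 were higher and 1 lower. *Slpi*, a secreted inhibitor of leukocyte elastase, stood at 2703 CPM in PG and 10.5 CPM in skin, 259-fold higher (log2 interval 7.33 to 8.79). Of the 6 substrates, *Dsg3* was higher and *Cdsn*, *Dsc1*, *Dsg1a* and *Flg* were lower. Within PG, 8 of 10 other proteases and receptors, 6 of 10 other inhibitors and all 4 substrates compared were higher in duct-like than in basal-like cells, and none was lower, beside 8.81% and 19.2% of all genes.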

How the data were processed

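The authors deposited UMI counts per gene and cell barcode, made with Cell Ranger 4 on mm10 per the labels and file headers, with 1 library for skin and 1 for PG, each pooling 3 mice. The counts were raw and whole, and barcodes were kept that held 500 or more genes, 1000 or more UMIs and no more than 10% UMIs of mitochondrial genes (27407186 UMIs in skin and 15270076 in PG). Each cell was gated by marker genes (2 or 3 markers detected and at least 10 to 60 marker UMIs per 10000). Left out were mixed cells, which passed several non-epithelial gates or a non-epithelial with certain epithelial gates (252 in skin, 133 in PG). Cells passing no gate were also left out (496 in skin, 370 in PG). Cells passing several epithelial gates were kept in a single class, with cycling first, then granular, then the strongest other gate, and basal last. Doublets were otherwise kept, and removal of 634 skin and 177 PG cells with the highest doublet scores was an alternative. UMIs were summed per class, since cells are not replicates, and no test was run. Members with at least 50 CPM in an epithelial class are named with each level, and others by their highest class. Levels have exact Poisson, ratios and shares exact binomial 95% intervals, and a class at 0 is set to a floor of 3 counts for calls and medians. For a ratio with such a class, at least and at most give the inner end of its interval. Classes needed 50 cells, so 10 of 16 planned comparisons were made. The members and lists were chosen with earlier results of these data known. The ratio step was tested on simulated data. Gene positions, overlaps and shared base words are from the GENCODE annotation, and upstream sequences from RefSeq start sites (GRCm38.p6). Software was Python 3.11.15, numpy 2.4.6, scipy 1.17.1, pandas 2.3.3, scikit-learn 1.9.0, leidenalg 0.10.2, igraph 0.11.9 and matplotlib 3.10.9. The 8 alternatives were a filter at 1000 genes and 2000 UMIs, at most 5% mitochondrial UMIs, no minimum level, median-of-ratios scaling, classes from Leiden clusters, subtraction of free RNA, removal of high doublet scores and, added after seeing the data, gates 1.5 times as strict.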

Additional observations from a re-analysis of the deposited data

How the results depend on the processing

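No paired analysis was possible because each tissue had 1 library. Over 8 alternatives, 78 of 80 counts of members stayed within 1.5 times the value reported. Without a minimum level, pSEB over basal-like cells gave 8 members (3 higher, 5 lower, against 3 in all), and PG over skin basal-like cells gave 16 (2 higher, 14 lower, against 10), since more genes then entered. The share of all genes called without a minimum level is not given here. Nothing about the members is therefore read from these larger counts. Of 93 calls, 84 were kept under every alternative and 9 ended under at least 1. Those were *Klk10*, *Spink2* and *Serpinb8* in bulge cells, *Klk7* in inner root sheath cells, *Serpinb11* in skin upper follicle-like cells, *Serpinb6b* in pSEB, and *Serpinb3b*, *Serpinb5* and *Serpinb11* in PG duct-like over skin upper follicle-like cells. Of 744 ratios 670 moved by less than their counting interval, 73 moved by more and 1 reversed: *Serpinb8* in bulge over basal-like cells went from a log2 of 1.05 to −0.14 (−0.75 to 0.42) in cells of 1000 or more genes and 2000 or more UMIs, and the cause was not tested. Values moved most often with the classes and with free RNA. With Leiden clusters as classes *Klk7* in granular-like over basal-like cells was 7.46 on the log2 scale, and with free RNA subtracted it was 12.87. Scaling by the median of ratios shifted all genes by −0.25 to 0.35. Depth limits members with few UMIs, and with 92 granular-like and 39 sebocyte-like cells in skin and no replicates, the spread between mice is unknown.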

Other observations

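Several clade B serpins were also found outside the epithelium, some of them at their highest level. *Serpinb6a* was 1524 CPM in 49 skeletal muscle-like cells of skin, 678 CPM in skin fibroblasts and 516 CPM in PG fibroblasts. *Serpinb9*, the inhibitor of granzyme B, was 91.5 CPM in skin endothelial-like cells and 25.9 CPM in PG fibroblasts. *Serpinb6b* was 48.5 CPM in skin endothelial-like cells, and *Serpinb1a*, an inhibitor of neutrophil elastase, was 56.5 CPM in skin immune-like cells. That *Serpinb1a* level came from 31 UMIs in 15 cells, 16 of them in a single cell, beside 37.5 CPM in upper follicle-like cells. *Serpinb8* was 36.5 CPM in the immune-like cells of skin, below the 203 CPM of granular-like cells. In the immune-like cells of PG it was 27.6 CPM, above each PG epithelial class. *Serpinb2*, which PG epithelial classes nearly lacked, had 11 UMIs in 2 PG immune-like cells (25.3 CPM). *Spink12* had 10 UMIs in PG cells, 7 of them in a single cell. No difference between these classes was tested, since each tissue was 1 library.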
